A study of Mus musculus with 13 samples.

Results

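Rgn encodes regucalcin, also known as senescence marker protein 30 (SMP30), and is 1 of the 100 genes read in this study of the regenerating mouse liver. It was chosen by its measured values: its level per cell, its share of positive cells and its place in the lobule were all seen in these data first, so they are given here as descriptions, with no test. The libraries are liver sections of male C57BL/6 mice, 2 months old at surgery, from which 2/3 of the liver had been removed (partial hepatectomy). There were 2 sections at 0 h, 2 at 24 h, 2 for 48 h, 2 at 72 h, 3 at 14 d, 1 in the 3 mo section and 1 at 6 mo, 13 in all, and the groups differ by the time after surgery and, in part, by slide. The tissue was frozen liver, after surgery from the regrown lobes, read by Molecular Cartography, in which transcripts of a gene panel are imaged one by one in a section. No sham operation and no unoperated mouse of the later ages is among the sections used here, so time after surgery and age cannot be told apart.

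Regucalcin is a soluble calcium-binding protein of hepatocytes. As a gluconolactonase it acts in the synthesis of ascorbate, which mice make in the liver, and its loss with age gave it the name senescence marker protein. Hepatocytes differ along the line from the portal triad, where blood enters the lobule, to the central vein, where it leaves. Cells near the central vein carry out drug oxidation (Cyp2e1, Cyp1a2) and, in the layer next to the vein, glutamine synthesis (Glul), while portal cells hold urea synthesis (Cps1) and gluconeogenesis (Pck1, Fbp1).

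The sections held 4586 to 15817 outlined cells and 1678015 to 9619206 transcripts in cells, with a median of 231 to 632 per cell. Of 428580 Rgn counts in cells, 5023 came from the 6 mo section. Position lists of all transcripts were available for 12 of the 13 sections and held 623589 Rgn transcripts; the third 14 d section has cell counts only. Slide 1 carried the first section of 0 h and of 72 h and every section of 24 h, 48 h and 3 mo. Slide 2 carried the second sections of 0 h and 72 h and the 6 mo section, and slide 3 the 14 d sections alone, so that slide 3 and 14 d cannot be told apart. Nothing in the labels says that the sections of a group came from separate mice, and the spread between them may be technical.

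The share of Rgn among all counts in cells was below 1.2% in every section and was lowest at 6 mo. It was 0.817% and 0.400% in the 0 h sections, 0.656% and 0.683% at 24 h, 0.712% and 0.992% for 48 h, and 0.853% and 0.548% at 72 h. It was 0.851%, 0.937% and 0.825% at 14 d, 1.17% in the 3 mo section and 0.174% at 6 mo. The 0 h sections lay as far apart as most times did from each other, and the values of 24 h, 48 h and 72 h overlapped theirs or reached past them by little. The 14 d sections lay close together just above the higher 0 h section, the 3 mo section lay above all others, and the 6 mo section lay below all others.

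Counted per cell, Rgn stood at 2.79 and 1.35 transcripts at 0 h, 2.31 and 2.50 at 24 h, 2.37 and 3.62 for 48 h, and 4.37 and 2.44 at 72 h. At 14 d it stood at 5.27, 5.76 and 3.83 transcripts per cell, at 3 mo at 3.99 and at 6 mo at 0.469. The 14 d sections did not overlap the 0 h sections in this measure, with a mean of 4.95 ± 1.00 (SD, n = 3) against 2.07 ± 1.02 (SD, n = 2). The median number of all transcripts in a cell was also higher at 14 d, at 632, 626 and 470 against 314 and 317 at 0 h, and was 231 at 6 mo; the part of this depth in the per-cell values was not tested. In bulk or per-section sums, fewer hepatocytes and less Rgn in each cannot be told apart.

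Rgn was unevenly spread over cells. The tenth of cells richest in Rgn held 40.3% and 49.8% of its counts at 0 h, 33.4%, 34.2% and 36.1% at 14 d, 39.5% in the 3 mo section and 65.8% at 6 mo. The largest count in any cell was 67, at 14 d, and the largest at 6 mo was 13. Cells with 10 or more Rgn transcripts made up 6.90% and 1.19% of cells at 0 h, 17.8%, 21.1% and 10.5% at 14 d, 14.7% in the 3 mo section and 0.0746% at 6 mo. The share was 14.9% in 72 h section 1 and 8.77% or less in the other sections of 24 h to 72 h. High-count cells were thus most frequent in 14 d sections 1 and 2 and nearly missing from the 6 mo section.

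At least 1 Rgn transcript was found in 56.9% and 44.1% of cells at 0 h, 56.1% and 61.8% at 24 h, 59.3% and 71.2% for 48 h, and 71.2% and 63.9% at 72 h. The positive share was 81.8%, 83.2% and 75.9% at 14 d, 58.4% in the 3 mo section and 24.8% (95% Wilson interval 24.0 to 25.6, counting error only) at 6 mo. Deeper cells score as positive more easily, so each cell was also thinned to 100 transcripts, leaving out shallower cells (2.86% to 9.21% of cells in the sections up to 3 mo and 1827 of the 10718 cells at 6 mo). The thinned share was 41.3% and 25.7% at 0 h, 37.5% and 40.0% at 24 h, 41.6% and 51.6% for 48 h, and 46.2% and 36.4% at 72 h. It was 48.7%, 50.6% and 47.0% at 14 d, 47.1% in the 3 mo section and 14.1% at 6 mo. The mean positive share at 14 d was 1.59 times that at 0 h before thinning and 1.46 times after it, and the 6 mo section stayed below every other section.

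**Figure D1:**
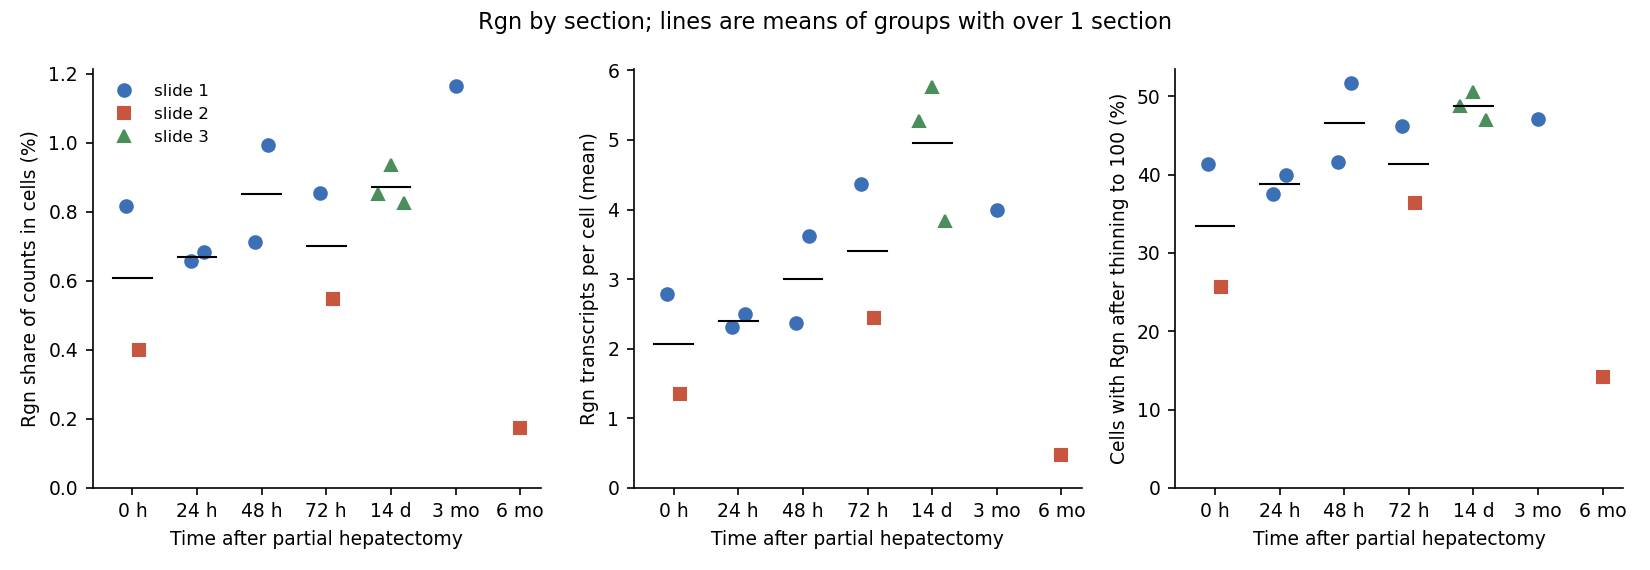
Rgn share of counts in cells (%, left), mean Rgn transcripts per cell (middle) and cells with Rgn after thinning to 100 transcripts (%, right) against time after partial hepatectomy. Each point is a section, marked by slide, and black lines are means of groups with over 1 section; the 6 mo section is lowest in each panel (0.174%, 0.469 and 14.1%), and the 14 d sections are highest per cell except for 72 h section 1 (4.37) and the 3 mo section (3.99), which lie above 14 d section 3 (3.83).

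Slide 2 sections had the lower value wherever a time was read on both slides 1 and 2. Against the 0 h section of the same slide, the share of Rgn was 0.803 and 0.836 times at 24 h, 0.871 and 1.21 times for 48 h, 1.04 times at 72 h and 1.43 times at 3 mo on slide 1. On slide 2 it was 1.37 times at 72 h and 0.434 times at 6 mo. The fall at 6 mo was therefore smaller within its slide than against the mean of both 0 h sections (0.285 times), and it kept its direction.

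Across the panel, counts were fitted with edgeR's quasi-likelihood model after TMM scaling, which sets a library to the bulk of its genes. Rgn in CPM, counts set to a common total after TMM scaling, was 10172 and 6435 at 0 h, 6925 at 24 h with both sections summed, 6701 and 8068 for 48 h, and 9082 and 5525 at 72 h. It was 6403, 8438 and 6910 at 14 d, 10506 in the 3 mo section and 1993 at 6 mo. The groups from 24 h to 14 d lay within the range of the 0 h sections or somewhat below it on this scale. The log2 fold change against 0 h was -0.26 ± 0.36 (SE) at 24 h, -0.17 ± 0.29 for 48 h, -0.19 ± 0.29 at 72 h and -0.20 ± 0.27 at 14 d. It was 0.34 ± 0.36 in the 3 mo section and -2.06 ± 0.40 at 6 mo, from 1 section each. The pooled SD between libraries of a time was 0.345 on the log2 scale. It came from 0 h, 48 h, 72 h and 14 d, since 24 h, 3 mo and 6 mo had 1 library each. The fold changes up to 3 mo were smaller than this SD and that at 6 mo was larger. The SD describes single libraries and does not measure the spread between mice or between sections at 6 mo.

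The sign of the small changes depended on the scaling. With library totals in place of TMM the values were 0.13, 0.49, 0.20 and 0.52 at 24 h, 48 h, 72 h and 14 d, and per number of cells they were 0.20, 0.53, 0.72 and 1.26. These scalings moved the median gene too, to 0.83 and 1.57 at 14 d against 0.07 with TMM. Set against that median, Rgn at 14 d was -0.27 with TMM, -0.32 with library totals and -0.31 per number of cells. Rgn minus the median gene at 6 mo was -1.91, -1.92 and -1.93 under the same scalings, and 0.36, 0.33 and 0.33 at 3 mo. A change of scaling moves all genes of a library by about the same amount. The agreement of these differences between scalings thus follows from the subtraction and tests nothing. Of the 99 genes tested, only Hif1a, the oxygen-sensing transcription factor subunit, had a more negative fitted change at 6 mo than Rgn. With the slide as a block the 6 mo value was -1.76 ± 0.33, and without the first 0 h section it was -1.55.

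In the lobule, Rgn was a pericentral transcript at each time. Sections were divided into square tiles of 400 position units with at least 50 transcripts. Each tile was scored from 9 central genes (among them Cyp2e1, Glul, Oat and Lect2) and 6 portal genes (among them Cps1, Pck1 and Hsd17b13). The share of each gene was log-transformed and standardized over the tiles of its section. The score was the mean of these values over the central genes minus that over the portal genes, and Rgn was in neither list. Over tiles, Spearman's rho of the Rgn share with this score was 0.89 and 0.90 at 0 h, 0.91 and 0.88 at 24 h, 0.92 and 0.92 for 48 h, and 0.81 and 0.87 at 72 h. It was 0.88 and 0.88 at 14 d, 0.86 in the 3 mo section and 0.81 at 6 mo. Tiles of a section share their cells, depth and neighbours, so rho is descriptive. Among 62 genes that had 500 or more transcripts in each section, between 1 and 4 ranked above Rgn in a section, and these came from Cyp2e1, Oat, Lect2, Cyp1a2 and Gstm2. Most of these are in the score, but each gene was left out of it for its own rho.

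**Figure D2:**
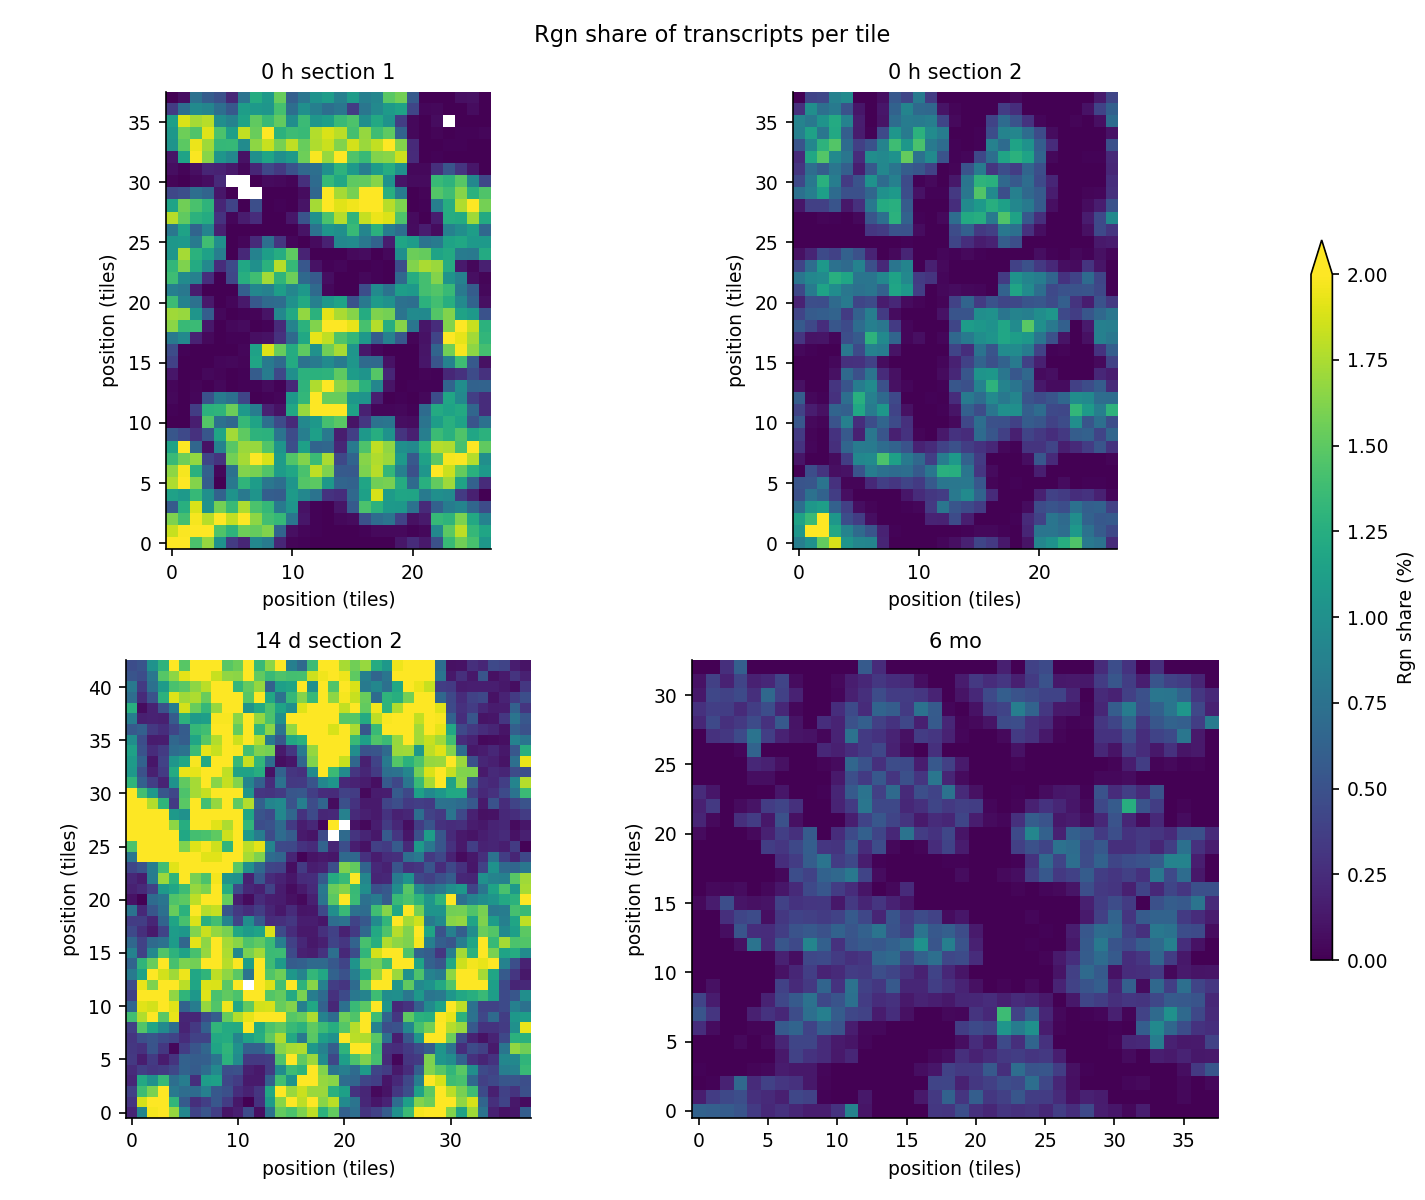
Rgn share of transcripts (%) in tiles of 400 position units, in both 0 h sections, 14 d section 2 and the 6 mo section, on 1 colour scale that ends at 2%; axes are positions in the section in tiles, and white tiles had under 50 transcripts. Rgn-rich patches are separated by tiles with little or none at 0 h and 6 mo (10.8%, 22.1% and 28.4% of tiles held no Rgn transcript), whereas at 14 d section 2 nearly all tiles held some (0.123% had none).

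For a profile, the tiles of each section were ranked by score and divided into 5 zones of equal number, from zone 1 (most portal) to zone 5 (most central). In 0 h section 1 the Rgn share rose from 0.0299% of transcripts in zone 1 to 0.384%, 1.02%, 1.33% and 1.62% in zones 2 to 5. In 0 h section 2 it rose from 0.0125% to 0.0980%, 0.414%, 0.701% and 0.948%. The second section was thus lower in each zone, with the same order, and the central zone exceeded the portal zone 54.3-fold and 75.9-fold.

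The central to portal ratio was smaller in later sections up to 14 d. It was 39.7 and 26.9 at 24 h, 37.9 and 22.3 for 48 h, 11.1 and 14.3 at 72 h, and 7.14 and 6.91 at 14 d. It was 68.1 in the 3 mo section and 46.1 at 6 mo, the 3 mo value lying between the 0 h sections. No section of 24 h to 14 d overlapped the 0 h sections, and those of 72 h and 14 d lay below all of 24 h and 48 h. With tiles of 800 units the ratio of 24 h section 1, 31.8, lay between those of the 0 h sections, 27.1 and 35.0. The third 14 d section, placed by the positions of its cells, gave 6.57 from counts in cells, where the other 14 d sections gave 6.88 and 6.49.

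As a ratio to 0 h, the larger change from 24 h to 14 d lay at the portal end. In absolute terms the mean share at 14 d rose more in zone 5, from 1.29% to 1.89%, than in zone 1, from 0.0212% to 0.269%. Zone 1 held 0.0420% and 0.0556% Rgn at 24 h, 0.0458% and 0.0929% for 48 h, 0.146% and 0.0776% at 72 h, and 0.246% and 0.293% at 14 d, each above both 0 h sections. At 3 mo it held 0.0355% and at 6 mo 0.0111%, from 95 transcripts. Zone 5 held 1.67% and 1.49% at 24 h, 1.73% and 2.07% for 48 h, 1.63% and 1.11% at 72 h, 1.76% and 2.02% at 14 d, 2.42% in the 3 mo section and 0.512% at 6 mo, so that only the 6 mo section lay below the 0 h range of 0.948% to 1.62% at the central end.

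Cells followed the tiles. In zone 1, 5.60% and 2.46% of cells had a Rgn transcript at 0 h, 9.90% and 13.9% at 24 h, 11.1% and 19.0% for 48 h, 27.8% and 20.1% at 72 h, and 58.1% and 63.6% at 14 d. At 3 mo the portal-zone share was 4.43% and at 6 mo 1.78%. Zone 1 cells held a mean of 669 and 659 transcripts at 14 d against 277 and 297 at 0 h, and the part of that depth in the positive share was not tested. The share of Rgn among transcripts in zone 1, which depth does not scale, was 0.269% on average at 14 d and 0.0212% at 0 h.

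**Figure D3:**
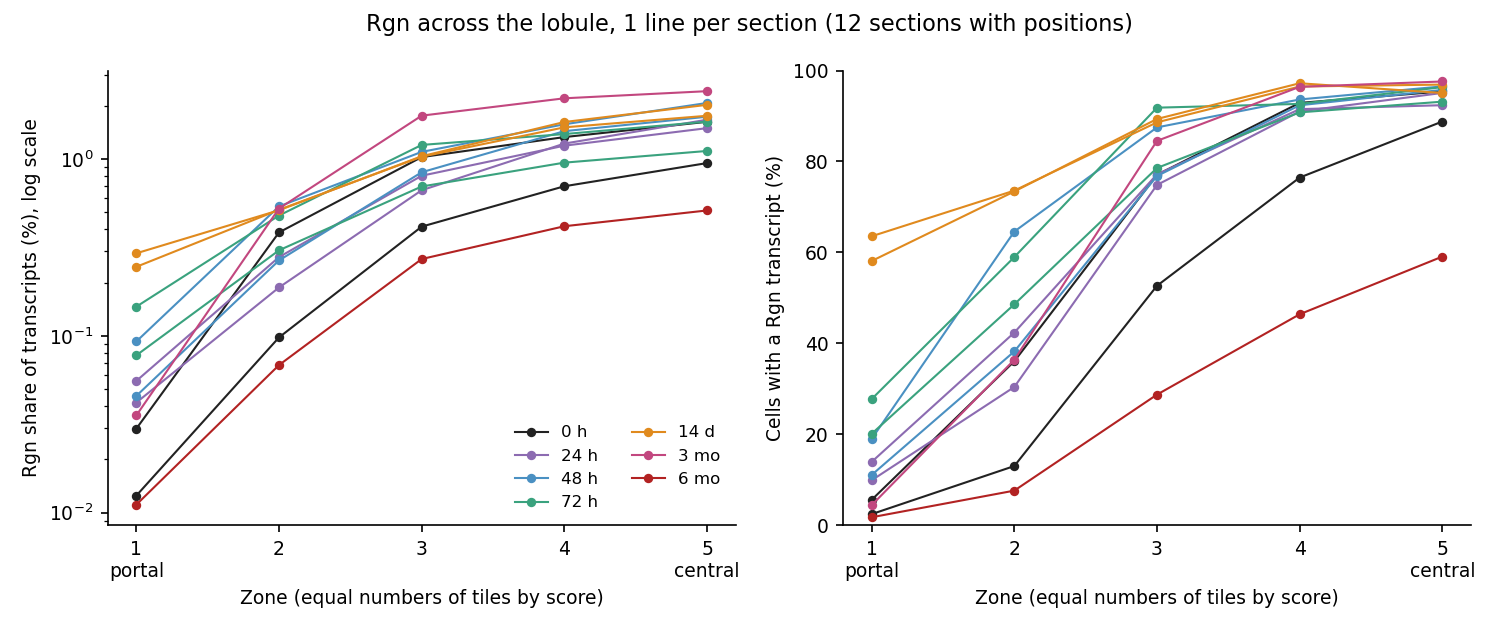
Rgn share of transcripts (%, log scale, left) and cells with a Rgn transcript (%, right) in 5 zones from most portal (1) to most central (5), 1 line for each of the 12 sections with positions, coloured by time. At the central end the shares lie between 0.948% and 2.42% except at 6 mo (0.512%), and they fan out at the portal end, where 14 d is highest (0.246% and 0.293%) and 6 mo lowest (0.0111%).

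Other zoned genes were set beside Rgn at 14 d. Cyp2e1, the ethanol-metabolizing cytochrome P450 and a member of the score, had a central to portal ratio of 859 and 2025 at 0 h and of 88.1 and 81.6 at 14 d. Lect2, a secreted hepatokine, went from 118 and 106 to 9.67 and 10.1. Oat, ornithine aminotransferase, went from 121 and 90.6 to 53.9 and 37.7. On the portal side, Hsd17b13, a lipid droplet enzyme, had a portal to central ratio of 498 and 118 at 0 h and of 31.9 and 21.6 at 14 d.

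Tbx3, a transcription factor of central hepatocytes, did not follow them, with central to portal ratios of 54.5 and 73.3 at 0 h and 166 and 121 at 14 d, from 6 to 22 portal transcripts a section. Pck1 did not either, with portal to central ratios of 14.9 and 4.59 at 0 h and 6.93 and 5.77 at 14 d. Of 13 zoned genes examined, Rgn included, 11 had both 14 d ratios below both 0 h ratios. Beside those named these were Cyp1a2, Glul, Gstm2, Cps1, Gls2 and Fbp1. Only Rgn, Gstm2 and Fbp1 were outside the score that set the zones, and each of these was among the 11. The 13 were picked genes, and the ratio was not computed for the rest of the panel. The lower ratio at 14 d was thus not particular to Rgn. Whether the zones of these larger 14 d sections were less cleanly separated by the score was not tested.

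Rgn and Cyp2e1 parted at 24 h and 48 h. In zone 5, Cyp2e1 took 62.2% and 59.4% of all transcripts at 0 h but 27.4% and 36.7% at 24 h and 33.9% and 23.8% for 48 h. With all else equal, such a drop raises the share of every other gene. Taken out of the totals, Rgn in zone 5 was 4.30% and 2.33% at 0 h, 2.30% and 2.36% at 24 h, 2.62% and 2.72% for 48 h, and 3.75% and 2.33% at 72 h. On the same basis it was 3.11% and 3.63% at 14 d, 6.17% in the 3 mo section and 1.35% at 6 mo. From 24 h to 14 d central Rgn thus lay within the 0 h range or just under it on this basis (2.30% against 2.33%), and the high 3 mo and low 6 mo sections stood apart on both bases.

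At 6 mo both genes parted in the other direction. Cyp2e1 in zone 5 was 62.2% at 6 mo, the level of the 0 h sections, while Rgn per cell there was 1.32 transcripts against 6.70 and 3.66 at 0 h and 9.75 at 3 mo. Of zone 5 cells, 59.1% had a Rgn transcript at 6 mo against 95.4% and 88.8% at 0 h. Zone 5 cells held a mean of 375 transcripts at 6 mo against 470 and 451 at 0 h. The lower Rgn level at 6 mo was present in zones 2 to 5 against both 0 h sections, and in zone 1 the 6 mo share of 0.0111% lay next to the 0.0125% of the 0 h section on the same slide.

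Tiles in the top 2% by Glul share were taken as marks of the Glul layer around central veins, and distance from them was counted in tiles. In 0 h section 1 the Rgn share was 1.77% in Glul-rich tiles and 1.65%, 1.30% and 0.921% at 1, 2 and 3 tiles from them, while Glul itself went from 8.87% to 2.37%, 0.342% and 0.477%. In the 6 mo section Rgn was 0.444%, 0.482%, 0.462% and 0.384% over the same steps. The share 1 tile out exceeded that in the Glul-rich tiles in 8 of 12 sections, and the number of Rgn transcripts per tile did so in 12 of 12. That number also follows the total of all transcripts in a tile, which was not made equal. Glul falls away from the Glul-rich tiles by their choice, so the steps of Rgn and Glul are not compared.

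By the likeness of tile shares, with both genes left out of the totals, the closest panel genes were Cyp2e1 (median rho 0.94 over 12 sections), Lect2 (0.85), Oat (0.83), Cyp1a2 (0.83) and Tbx3 (0.73). The most opposed were Pck1 (-0.84), Fbp1 (-0.84) and Hsd17b13 (-0.81), all of the portal side. Cyp1a2 varied most among the close genes, from 0.34 to 0.92. The 5 closest genes in space were all members of the central score list, although Rgn was not.

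Over the 12 libraries the order of likeness was another. Pearson's r in log2(TMM-scaled CPM + 1) was 0.79 for Uqcrh, a respiratory complex III subunit, 0.78 for Cyp27a1, a bile acid enzyme, 0.73 for Igf1, 0.67 for Ndufb10, a complex I subunit, and 0.66 for Arnt. Without the 6 mo library these became 0.38, 0.66, 0.49, 0.26 and 0.63, so that much of the likeness of Uqcrh, Igf1 and Ndufb10 rested on that library. The lowest r were -0.62 for Igfbp2, -0.60 for Sox9 and -0.54 for Pck1, and -0.30, -0.33 and -0.67 without 6 mo. Libraries share their scaling and slides, and none of these values is a test.

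Rgn transcripts lay farther from cell centres than most. Of the listed Rgn transcripts, 63.4% and 66.0% fell in an outlined cell at 0 h, 57.7% to 63.5% from 24 h to 14 d, 45.7% in the 3 mo section and 39.7% at 6 mo. Over all genes the part in cells was 75.4% and 79.8% at 0 h, 60.2% in the 3 mo section and 63.8% at 6 mo, and Rgn was below the figure for all genes in 12 of 12 sections. At most 6 of the 63 to 84 genes with enough transcripts in a section had a lower part in cells than Rgn.

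The median distance from a Rgn transcript to the nearest cell centre was 56.1 and 55.3 position units at 0 h, against 48.3 and 45.2 for all transcripts. It was 68.6 in the 3 mo section and 73.6 at 6 mo, against 57.9 and 55.1 for all transcripts. Points of a regular grid over the same tiles lay 49.5 and 48.1 units from a cell centre at 0 h, 59.1 in the 3 mo section and 56.7 at 6 mo, so that Rgn lay farther out than even-spread points in these sections. Genes that lay still farther in a section were Gstm3, Gstm2, Oat, Cyp1a2 and Lect2, which are central genes, and in 48 h section 2 also Ccnd1 and Igfbp2, which are not. Within zone 5 alone, Rgn lay at 56.1 and 55.0 units at 0 h and 76.1 at 6 mo, and all transcripts at 50.6, 47.2 and 61.7.

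The measured fall at 6 mo was smaller over all listed transcripts. With all listed transcripts in place of those in cells, the 6 mo log2 fold change was -1.51 ± 0.36, and that at 3 mo was 0.70 ± 0.32. The direction was that of the counts in cells at both times.

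**Figure D4:**
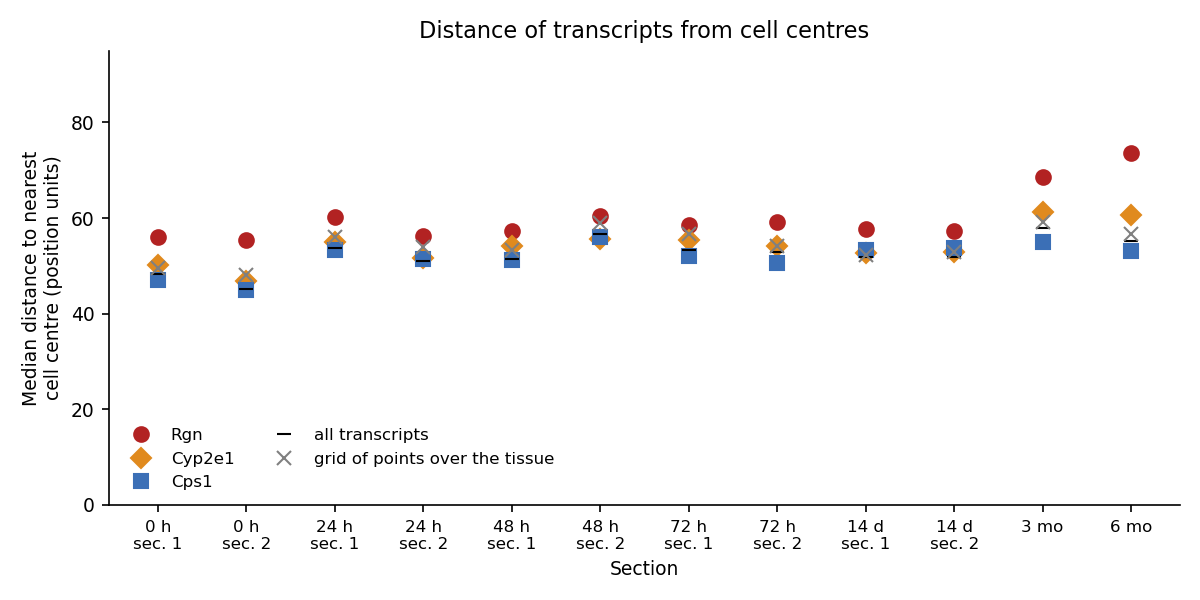
Median distance (position units) from transcripts to the nearest cell centre in the 12 sections with positions, for Rgn, Cyp2e1, Cps1, all transcripts and a regular grid of points. Rgn is above all transcripts in each section, by the most at 6 mo (73.6 against 55.1).

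Cells of the same section, wherever they lay in it, were compared. The lobule position of Rgn was known when the gene was chosen. A whole-section ratio for cells that lie mostly portally or centrally can repeat that position, so its p-value is no separate support. In each section, cells with at least 50 counts were called rich in a marker list when they reached its 95th percentile with at least 2 counts, and the Rgn share of their remaining counts was divided by that of all other cells. The 7 ratios were tested over 12 libraries (24 h averaged) by exact two-sided permutation of signs, with Benjamini-Hochberg adjustment over the 7. Most lists rest on 1 or 2 panel genes, so the cells are named by their genes and not as types. Outlines in a thin section take in parts of neighbours, and Rgn in such cells need not be their own.

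Cells rich in Sox9 and Cldn7, genes of bile duct epithelium, had less Rgn than the other cells. The share was 0.130% against 0.832% in 0 h section 1, 0.0987% against 0.404% in 0 h section 2, 0.0566% against 1.20% in the 3 mo section and 0.00751% against 0.177% at 6 mo. The mean log2 ratio was -2.28 ± 1.25 (SD, n = 12), lower in 12 of 12 libraries (exact permutation, adjusted p = 0.000854). Of these cells, 12.0% had a Rgn transcript in 0 h section 1, at a median of 240 counts per cell, against 59.3% of other cells at 325. The positive share of the Sox9 and Cldn7 cells ran from 1.17% at 6 mo to 56.4%, 63.9% and 55.1% at 14 d, and was 46.0% in 48 h section 2. Their median counts per cell were 142 at 6 mo, 573, 564 and 454 at 14 d and 372 in 48 h section 2. This share was not thinned, and the part of depth in it was not tested. Few of them lay centrally, with 1.50% in the 2 most central zones against 35.8% of other cells in 0 h section 1, so that their positive share says little of central zones. Compared with other cells of the same zone the mean log2 ratio was -0.87, lower in 11 of 11 libraries (exact permutation, adjusted p = 0.00114), a comparison added after the data were seen.

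Cells rich in the cyclins Ccne1, Ccna1 and Ccnb1 were in practice Ccne1 cells, since Ccne1, a cyclin of the G1 to S step, had 112 to 5346 counts a section and Ccna1 and Ccnb1 at most 31 and 22. They had a lower Rgn share, with a mean log2 ratio of -0.53 ± 0.39 (SD, n = 12), lower in 10 of 12 libraries (exact permutation, adjusted p = 0.00285). The ratio was above 0 in the combined 24 h library, at the mean of 0.34 and -0.10 for its sections, and in 48 h section 1, at 0.25. Few such cells existed at 0 h, 46 and 5, and 32 at 6 mo. Their place varied: 15.2% lay in the 2 most central zones against 35.5% of other cells in 0 h section 1, and 18.1% against 38.3% in 14 d section 2. In 48 h section 1 the shares were 34.8% and 35.2%, and in 24 h section 1 they were 50.6% and 34.7%, the reverse. These were the sections with ratios above 0. The central share was lower than that of other cells in 11 of 12 sections, 48 h section 1 included. Within zones the mean log2 ratio was -0.12 ± 0.26 (SD, n = 11; exact permutation, adjusted p = 0.111), lower in 6 of 11 libraries. The difference between Ccne1-rich and other cells was thus not past the threshold once cells of the same zone were compared.

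Cells rich in Ccnd1, the G1 cyclin that rises after hepatectomy, had a mean log2 ratio of 0.13 ± 0.48 (SD, n = 12; exact permutation, adjusted p = 0.380), lower in 4 of 12 libraries. The 6 mo library was the lowest, at -1.14, and without it the mean was 0.24 (exact permutation, adjusted p = 0.0117). Within zones the ratio was 0.42, above 0 in all 11 libraries (exact permutation, adjusted p = 0.00114), but in Rgn transcripts per cell it was -0.51 (exact permutation, adjusted p = 0.00684). Ccnd1-rich cells had fewer counts, with a median of 183 against 333 in 0 h section 1, and share and number per cell therefore gave opposite signs.

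The same split between share and number held for the other lists. Cells rich in the endothelial genes Pecam1, Wnt2, Wnt9b and Rspo3, of which the last 3 encode Wnt-pathway ligands of the central vein, had a higher Rgn share, with a mean log2 ratio of 0.80 ± 0.21 (SD, n = 12) in 12 of 12 libraries (exact permutation, adjusted p = 0.000854). The ratio was 0.48 for Adgre1 and Lyz2 (macrophage genes), 0.51 for Lrat (stellate cells) and 0.29 for Ptprc (leukocytes), with adjusted p between 0.000854 and 0.00137 by exact permutation. At the 98th percentile the Ptprc ratio was 0.0881 and no longer passed (exact permutation, adjusted p = 0.126). Cells rich in the endothelial genes lay centrally more often in 48 h section 2 (64.8% against 37.3%) but not in 0 h section 1 (34.6% against 35.4%). Within zones the share ratio was 0.55 for the endothelial genes, 0.53 for Adgre1 and Lyz2, 0.54 for Lrat and 0.44 for Ptprc. In transcripts per cell over whole sections the ratios were -0.09 for the endothelial genes, -0.37 for Adgre1 and Lyz2, -0.22 for Lrat and -0.33 for Ptprc. Over whole sections the Adgre1 and Lyz2 and the Ptprc values passed as lower per cell (exact permutation, adjusted p = 0.000854 each), and the endothelial and Lrat values did not. Within zones the endothelial (-0.36, adjusted p = 0.00854), Adgre1 and Lyz2 (-0.29, adjusted p = 0.00684) and Lrat values (-0.22, adjusted p = 0.0137) passed as lower per cell and the Ptprc value did not (-0.17, adjusted p = 0.057), by exact permutation. No list of the 4 thus had more Rgn by both measures.

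**Figure D5:**
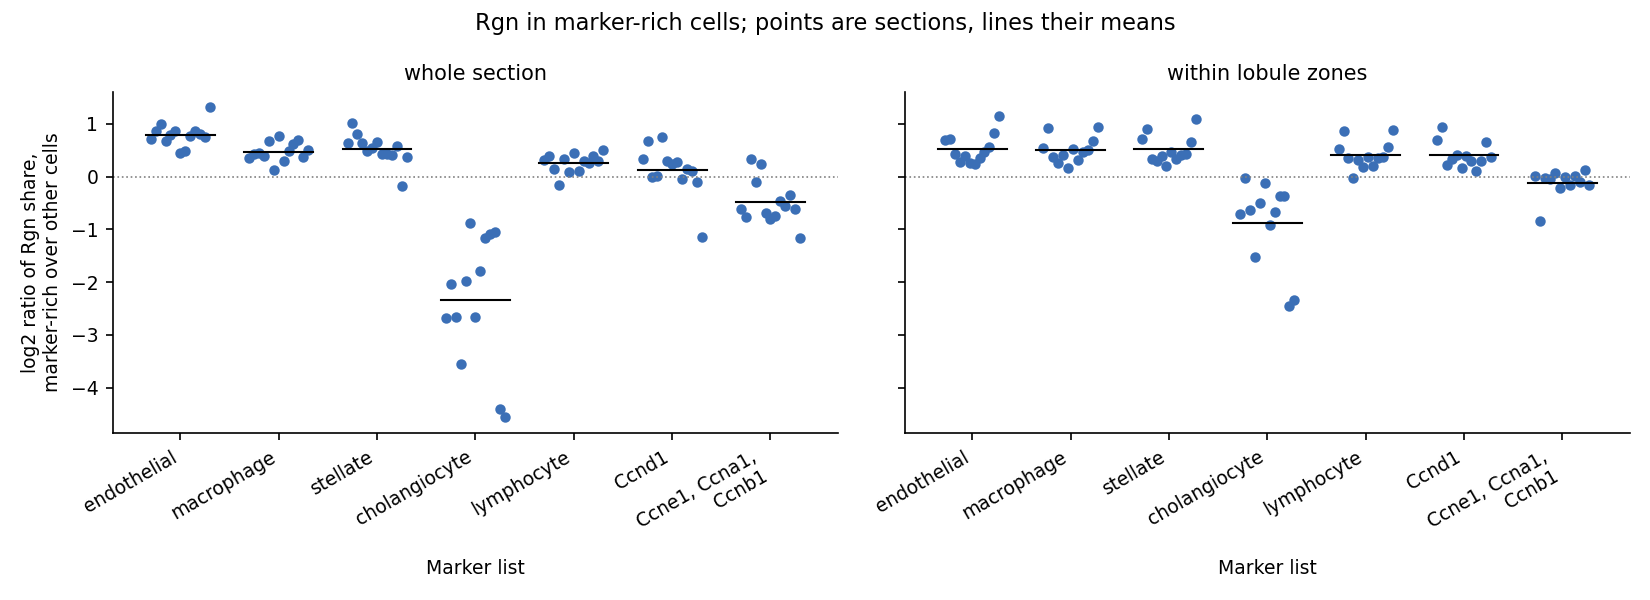
log2 ratio of the Rgn share in marker-rich cells to that in the other cells, over the whole section (left, 13 sections) and among cells of the same lobule zone (right, 12 sections); points are sections and lines their means. The Sox9 and Cldn7 list (cholangiocyte) is lowest in both panels, and the list of Ccne1, Ccna1 and Ccnb1 moves towards 0 in the right panel (means over libraries -0.53 and -0.12).

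The rest of the panel was read from the same edgeR fit at 14 d and 6 mo, with Benjamini-Hochberg adjustment over 99 genes. At 14 d, 15.2% of genes were higher and 13.1% lower than at 0 h at an adjusted p under 0.05, and at 6 mo 11.1% were higher and 12.1% lower. The 6 mo arm is 1 section, so its tests assume that it varies like sections of other times: with only 0 h and 6 mo in the edgeR fit 0 genes were called in either direction (4 higher and 3 lower at an unadjusted p under 0.05), and with the slide as a block 1 was higher and 6 lower. Of 17 pericentral genes other than Rgn, 3 rose at 14 d (Gstm1, Gstm2 and Gstm3, glutathione transferases) and 3 fell (Glul, Cyp2e1 and Cyp1a2). At 6 mo 4 of the 17 fell (Cyp1a2, Cyp27a1, Gstm2 and Gstm3), and the 17 had a median log2 fold change of -0.83 where that of all genes was -0.15. The number that rose was 0, and it was also 0 at an unadjusted p under 0.05 and with DESeq2. Rgn, at -2.06, lay below Cyp27a1 (-1.61 ± 0.37, edgeR adjusted p = 0.00398), Gstm2 (-1.47 ± 0.34, adjusted p = 0.0041) and Oat (-1.28 ± 0.53, adjusted p = 0.0906). With library totals 3 of the 17 fell at 6 mo, per number of cells 1 and with DESeq2 6. Cyp2e1 was at -0.57 ± 0.30 (edgeR adjusted p = 0.169) and Glul at -0.51 ± 0.44 (adjusted p = 0.429), so that the 2 best known central genes were not called at 6 mo.

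Of 10 periportal genes, 3 fell (Arg1, Cps1 and G6pc) and 0 rose at 14 d (1 at an unadjusted p under 0.05 and 1 with DESeq2), and 1 rose (Igfbp2) and 1 fell (Arg1) at 6 mo. Of 14 general hepatocyte genes, 5 fell and 0 rose at each of both times (8 and 0 at an unadjusted p under 0.05, and 0 higher with DESeq2), among them C6 and C8b (complement proteins) and Cpox (heme synthesis). These counts moved with the scaling at 14 d: per number of cells 11 of the 17 pericentral, 7 of the 10 periportal and 9 of the 14 general genes were higher. Over all 99 genes tested 75 were higher on that scaling, so these list counts were not particular to the lists. At 6 mo the general genes called lower were 2 with library totals, 1 per number of cells and 8 with DESeq2. The fall of hepatocyte genes at 14 d is thus relative to the bulk of the panel. The list names did not hold for every member in these sections. By median rho with the lobule score, Prodh of the periportal list was central (0.69) and Cyp8b1 of the pericentral list was portal (-0.44). The general genes ran from Igf1 (-0.85) to Alad (0.59).

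Gls2, the portal glutaminase, was not called at any time, with a log2 fold change of -0.21 ± 0.36 at 6 mo (edgeR adjusted p = 0.727). Cps1, the first enzyme of the urea cycle, fell at 14 d by 1.08 ± 0.22 on the log2 scale (edgeR adjusted p = 0.000727) and was at -0.33 ± 0.30 at 6 mo (adjusted p = 0.463). Rgn at 6 mo was thus lower relative to 0 h than any of the comparison genes Cyp2e1, Glul, Gls2 and Cps1.

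Of the cell cycle list, 4 genes were in the panel, of which 2 rose at 14 d (Ccnd1 and Ccna1) and 1 at 6 mo (Ccnd1). Ccnd1 rose by 1.99 ± 0.31 at 24 h, 2.09 ± 0.27 for 48 h and 1.94 ± 0.27 at 72 h on the log2 scale. The edgeR adjusted p was 4.58e-06 for 48 h and 3.21e-05 at 72 h. At these times the Rgn change was smaller than its pooled SD between libraries (0.345). At 6 mo it was higher by 1.62 ± 0.31 (edgeR adjusted p = 0.00179), from 1 section and with the spread taken from other times; no gene was called higher with only 0 h and 6 mo in the fit. Ccne1 rose by 2.98 ± 0.68 at 24 h and 3.09 ± 0.62 for 48 h (edgeR adjusted p = 0.0101 and 0.00389) and was not called at 14 d or 6 mo. Ccna1 had 0 counts in both 0 h sections and 6 to 31 in each section from 24 h to 14 d, and Ccnb1 at most 22 in any section. None of the 17 calcium and ascorbate genes and none of the 7 senescence genes listed as relatives of regucalcin was in the panel, so the data hold no reading of its pathway partners.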

How the data were processed

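The deposited tables hold counts of transcripts per gene and outlined cell, made by the provider of the assay; the outlining method, software and position unit are not given in the sources used here. The deposited position lists give each transcript's place. Counts in cells were summed per section, and the 24 h sections, which carry no number, were summed to 1 library. The 12 libraries were fitted in edgeR 4.0.16 (R 4.3.3; TMM, robust glmQLFit, glmQLFTest, 5 residual degrees of freedom, genes reaching 10 counts in 2 or more libraries), with DESeq2 1.42.0 as an alternative. Tiles, thinning and exact permutation tests used Python 3.11.15 with numpy 2.4.6 and scipy 1.17.1. The procedures were tested on simulated data. A Spearman correlation over tiles used at least 50 transcripts per tile. Alternatives covered scaling, filters, slide, tile size, thresholds and each section left out.

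Rgn and the gene lists were chosen with earlier results of these data known. Genes named are Rgn, its closest (5) and most opposed (3) genes over libraries and over tiles, Cyp2e1, Glul, Gls2, Cps1 and Ccnd1, the members of the cell cycle, calcium and senescence lists, and genes of listed counts; other genes were named after their values were seen. No sequence of Rgn or of its probes was used here.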

Additional observations from a re-analysis of the deposited data

How the results depend on the processing

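The limits are the number of sections (1 at 3 mo and at 6 mo), slides that differ in level, and cells outlined by an unstated method. Of 151 alternative values for the Rgn fold changes, 133 moved by less than the SD between libraries (0.345). Many of the 151 left out a section of a time not compared, which could move Rgn only through the scaling and the shared fit. The 6 mo value stayed negative in 23 of 23 alternatives (-2.34 to -1.51). All of these used the same 6 mo section, so they say nothing of the spread at 6 mo. Of the 151, the 18 that moved by more were 12 from scaling or counts and 6 from left-out sections. The 12 were those with library totals (0.13 at 24 h, 0.49 for 48 h, 0.20 at 72 h, 0.52 at 14 d and 0.94 for 3 mo), with the number of cells (0.20, 0.53, 0.72, 1.26 and 0.94), and with all listed transcripts (0.70 at 3 mo and -1.51 at 6 mo). Leaving out 1 section at a time gave -0.46 to 0.28 at 24 h, -0.52 to 0.0882 for 48 h, -0.64 to 0.13 at 72 h, -0.52 to 0.16 at 14 d, 0.14 to 0.82 for 3 mo and -2.34 to -1.55 at 6 mo, where the 6 were the first 0 h section (24 h, 14 d, 3 mo and 6 mo), the second 0 h section (48 h) and the first 72 h section (72 h). With the section number as a replicate block, Rgn was -0.19 at 48 h, -0.23 at 72 h and -0.07 at 14 d. Same-numbered sections correlated at -0.51 to 0.21 in their deviations. With so few sections a time, and numbers mixed with slides at 0 h and 72 h, these values cannot decide whether the numbers pair them. Mean level per cell was kept by a minimum of 50 counts per cell at all times. The thinned positive share relative to 0 h at 3 mo was 1.41 at 100 transcripts, 1.63 at 50 and 1.21 at 200. The cause of these shifts was not tested.

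The Spearman correlation with the lobule score moved by more than its small SD between sections (0.0222) with tile size. Tiles of 200 units gave 0.82, 0.84, 0.86, 0.76, 0.79, 0.79 and 0.69 from 0 h to 6 mo, and tiles of 800 units 0.94, 0.94, 0.96, 0.89, 0.94, 0.92 and 0.86. Counts in cells, added after the data were seen, gave 0.80, 0.85, 0.83 and 0.76 from 72 h to 6 mo. Without Cyp2e1 in score and totals the correlation was 0.94 at 0 h, 0.89 at 72 h, 0.91 at 14 d, 0.95 for 3 mo and 0.86 at 6 mo. The log2 central to portal ratio was 6.00 at 0 h and 2.81 at 14 d; without Cyp2e1 it was 6.87, 5.48, 5.28, 4.51, 3.55, 6.99 and 6.42 from 0 h to 6 mo. Tiles of 800 units gave 4.94 at 0 h, 4.59 at 24 h, 4.02 for 48 h, 5.66 for 3 mo and 5.08 at 6 mo, and tiles of 200 units 5.67 at 3 mo and 5.07 at 6 mo. At 6 mo it was 5.05 from counts in cells and 5.12 without Cyp2e1 in the score alone.

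In marker-rich cells the sign turned when Rgn was taken per cell: -0.0932 (endothelial), -0.37 (macrophage), -0.22 (stellate), -0.33 (lymphocyte) and -0.82 (Ccnd1); within zones these were -0.36, -0.29, -0.22, -0.17 and -0.51. The lymphocyte ratio was 0.0881 at the 98th percentile and no longer passed. The Ccnd1 ratio was 0.43 at the 90th percentile, 0.49 with at least 200 counts, -1.24 at the 98th percentile, -0.0667 without Cyp2e1 in the totals, 0.42 within zones, and 0.0718 to 0.24 with 1 section left out. The ratio for Ccne1, Ccna1 and Ccnb1 within zones was -0.12, and -0.00330 per cell, no longer past the threshold. Genes called higher and lower at 14 d were 15 and 13, but 37 and 5 with library totals, 75 and 2 per number of cells, 26 higher without the first 0 h section, 23 lower without the second, and 4 lower with the 14 d sections as 1 library. At 6 mo they were 11 and 12, but 20 and 21 with DESeq2, 5 and 3 per number of cells, 1 and 6 with the slide as a block, 4 and 2 with the 14 d sections as 1 library, 18 higher with no filter, 7 lower with library totals, 20 higher without the first 0 h section, 22 lower without the second, and 0 and 0 with edgeR on only the times compared (4 and 3 at an unadjusted p under 0.05).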
